A study of Rattus norvegicus with 6 samples.

Results

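Matrix metalloproteinases (MMPs), the aggrecanase-type protease Adamts1 and the tissue inhibitors of metalloproteinases (TIMPs) were examined in cultured neonatal rat ventricular cardiomyocytes (NRVCs). The genes were chosen by name, as 6 proteases (Mmp2, Mmp3, Mmp9, Mmp11, Mmp14 and Adamts1) and the 4 inhibitors Timp1, Timp2, Timp3 and Timp4, which makes 10 of the 16581 gene symbols on the array. All 10 had at least 1 probe, 13 probes in all. For a gene with several probes the brightest one on average describes the gene, and the others are given beside it. The cells came from the pooled ventricles of 8 to 10 Sprague-Dawley rats aged 1 to 2 days and were not genetically modified. Of the 6 arrays, 3 were hybridised with RNA of cultures in control medium and 3 with RNA of cultures given recombinant C3a, the anaphylatoxin split from complement C3, at 0.5 µg/ml for 12 h. The records describe a serum-free medium, and the study's methods a short starvation in low serum before stimulation. The records number the samples but do not say whether they are separate cell preparations, so p-values measure only the spread between these samples.

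MMPs are zinc-dependent proteases that are made as inactive zymogens and cleave collagens, gelatin, proteoglycans and matrix-bound growth factors. TIMPs bind the active site of the proteases and block it. The family is known in the heart for the turnover of the interstitial matrix during remodelling, where fibroblasts, inflammatory cells and cardiomyocytes all contribute. The membrane-anchored Mmp14 activates pro-Mmp2 on the cell surface with Timp2 as the adaptor, whereas Mmp3 and Mmp9 are known as genes induced by cytokines through AP-1 and NF-kB sites.

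The promoters of 7 of the 10 genes were in the RefSeq table (GRCr8 assembly), and those of Mmp2, Mmp9 and Mmp14 were not. In the 250 bases before the start, 3 sets of letters were searched on both strands: TGANTCA, the AP-1 core, which reads the same on both strands, TATAAA, and GGGCGG, the GC box. Of the 33469 promoters in the table, 6.34% held the AP-1 letters, 12.9% the TATA letters and 30.5% the GC box. Mmp3 was the only one of the 7 with the AP-1 letters, which began 71 bases before the start, with TATAAA 32 bases before it and no GC box. The promoters of Timp1, Timp2, Timp3, Mmp11 and Adamts1 held between 1 and 3 GC boxes each and no AP-1 letters, Adamts1 also held TATAAA, and Timp4 held none of the 3. Their GC content was 38.8% for Mmp3, 50.8% for Timp4 and between 61.2% and 72.0% for the other 5, beside a median of 51.2% over all promoters. These matches describe letters in this window and not binding. The stretches of Mmp3, of Timp2 and of Timp3 are shown 5′ to 3′ because the first gene was below detection, the second was detected on every array and the third was detected on all arrays of only 1 group. The matched letters are in capitals. They lie at chr8:12925031-12925280 on the plus strand (Mmp3), chr10:104089215-104089464 on the minus strand (Timp2) and chr7:19459559-19459808 on the minus strand (Timp3).
Mmp3: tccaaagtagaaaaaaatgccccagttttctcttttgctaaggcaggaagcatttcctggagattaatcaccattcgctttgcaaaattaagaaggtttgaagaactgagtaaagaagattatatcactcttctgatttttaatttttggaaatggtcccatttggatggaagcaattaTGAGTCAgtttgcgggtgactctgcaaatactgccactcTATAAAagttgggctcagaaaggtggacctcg
Timp2: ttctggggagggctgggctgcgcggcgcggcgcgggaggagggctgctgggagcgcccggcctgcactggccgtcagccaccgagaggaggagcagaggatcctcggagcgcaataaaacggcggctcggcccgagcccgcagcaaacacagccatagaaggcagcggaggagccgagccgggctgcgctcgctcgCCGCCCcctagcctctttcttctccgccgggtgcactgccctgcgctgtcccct
Timp3: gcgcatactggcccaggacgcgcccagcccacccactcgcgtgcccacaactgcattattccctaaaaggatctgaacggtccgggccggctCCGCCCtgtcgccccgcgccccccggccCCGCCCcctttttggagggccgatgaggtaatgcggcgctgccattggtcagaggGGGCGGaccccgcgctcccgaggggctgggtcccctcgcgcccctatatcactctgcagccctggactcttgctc

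All arrays lay on 1 slide, scanned once, with each treatment in its own column of the slide, so position and treatment cannot be told apart. The local background of control replicate 1 was raised (median 47 intensity units, 23 to 24 elsewhere), and 38.6% of its probes were well above background, where the remaining arrays had 53.7% to 57.3%. Signals are given as the log2 intensity minus the log2 of that array's 75th percentile, here called the relative log2 signal. No spot was saturated. The 10 cardiomyocyte markers (Myh6 and Actc1 the brightest) were well above background on all 6 arrays. Of the fibroblast markers 7 of 10 were, with Col1a2 and Col1a1 the brightest, of the endothelial markers 5 of 7 and of the macrophage markers 3 of 10. Of 7 neutrophil markers with a probe, 6 (S100a8, S100a9, Elane, Ngp, Csf3r and Cxcr2) were not well above background on any array. The probes are sums over all cells of a culture, in which fewer cells of a type and less RNA per cell cannot be told apart.

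The NRVC cultures expressed a basal set of these genes. The brightest probes of Mmp2, Mmp14, Mmp11, Adamts1, Timp1 and Timp2 were well above background on all 6 arrays. Those of Mmp3, Mmp9 and Timp4 were not well above background on any, and Timp3 lay between, on 1 of 3 control arrays (replicate 2) and 3 of 3 C3a arrays. Over the 16575 genes with a usable probe, 51.6% had a brightest probe well above background on all 6 arrays and 29.9% on none. No gene of the group passed an adjusted p under 0.05 for C3a against control in limma. The signal of a probe also depends on its sequence, so differences are taken across arrays for 1 probe or for a fixed set of probes, and a gene called the brightest of a list is so by probe signal and not by RNA level.

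**Figure D1:**
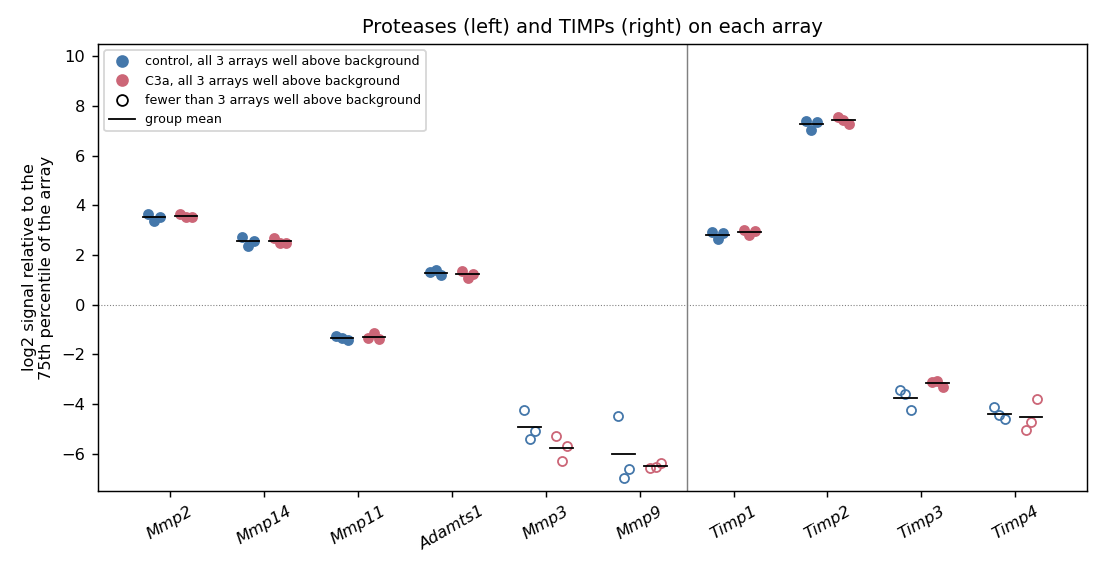
Relative log2 signal (y axis) of the brightest probe of each gene on the 3 control and 3 C3a arrays, with group means as lines. Filled points mark groups with all 3 arrays well above background, open points groups with fewer. The points of the 2 groups overlap for every gene but Timp3, where the C3a arrays lie between -3.30 and -3.08 and the controls between -4.24 and -3.43.

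Among the proteases, Mmp2 (gelatinase A, which degrades denatured and basement membrane collagen) had relative log2 signals of 3.66, 3.38 and 3.55 on control replicates 1, 2 and 3 and of 3.65, 3.55 and 3.55 on the C3a arrays. The 3 C3a values lay within the range of the controls. The C3a minus control difference was 0.05 (standard error 0.11, 95% interval -0.20 to 0.30, adjusted p = 0.890 from limma), or 1.04-fold. A dimmer Mmp2 probe gave 0.90, 1.09 and 0.83 in the controls and 0.66, 0.81 and 0.17 with C3a. On that probe all C3a arrays lay below all controls, as on 4.49% of all kept probes, and C3a replicate 3 was the lowest. The difference was -0.40 (standard error 0.18, 95% interval -0.81 to 0.02, adjusted p = 0.746 from limma) and -0.21 without C3a replicate 3. The 2 Mmp2 probes therefore disagreed, and the mean of both gave -0.17.

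Mmp14 (MT1-MMP, the membrane-bound activator of pro-Mmp2) had relative log2 signals of 2.74, 2.37 and 2.58 in the controls and 2.67, 2.49 and 2.50 with C3a. All C3a values lay within the range of the controls. The difference was -0.0096 (95% interval -0.30 to 0.28, adjusted p = 0.983 from limma), and the dimmer Mmp14 probe gave -0.02. As folds, the 95% intervals ran from 0.811 to 1.22 for the brighter and from 0.799 to 1.21 for the dimmer probe. Mmp11, a stromelysin that the convertase furin activates inside the cell, had signals of -1.25, -1.35 and -1.40 in the controls and -1.33, -1.13 and -1.38 with C3a. C3a replicate 2 was the highest array and the groups overlapped. The difference was 0.06 (95% interval -0.20 to 0.31, adjusted p = 0.879 from limma).

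Adamts1, a secreted protease that cleaves the proteoglycans aggrecan and versican, had relative log2 signals of 1.30, 1.41 and 1.18 in the controls and 1.35, 1.09 and 1.22 with C3a. C3a replicate 2 was the lowest array and control replicate 2 the highest. The difference was -0.08 (95% interval -0.35 to 0.19, adjusted p = 0.840 from limma). Without C3a replicate 2 it was -0.01, and without control replicate 2 it was -0.02.

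The proteases known as inducible were not measurable. The brighter Mmp3 (stromelysin-1) probe lay between -5.42 and -4.25 in the controls and between -6.31 and -5.27 with C3a, or 7.92 to 14.3 and 3.63 to 5.97 intensity units. The single Mmp9 (gelatinase B) probe lay between 2.73 and 12.3 intensity units in the controls and between 2.42 and 3.11 with C3a. For both genes the highest value was on control replicate 1, the array with the raised background. The dimmest probe well above background lay at -2.27 on that array and between -5.09 and -4.18 on the other 5, on the relative log2 scale. Signals at this floor have no order, so no fold is given. The neutrophil markers, cells known to carry Mmp9, were near background too, as stated above, and their summed signal was 0.0935 to 0.371 times the 75th percentile in the controls and 0.131 to 0.196 with C3a. The highest sum was again that of control replicate 1, and the remaining controls lay at 0.0935 and 0.0989. These sums at the floor have no order either.

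Among the inhibitors, Timp1, the secreted inhibitor that also binds pro-Mmp9, had relative log2 signals of 2.91, 2.65 and 2.89 in the controls and 3.01, 2.80 and 2.96 with C3a. C3a replicates 1 and 3 lay above all controls and replicate 2 did not. The difference was 0.11 (standard error 0.12, 95% interval -0.17 to 0.38, adjusted p = 0.791 from limma), and 0.02 without control replicate 2. Timp2, the inhibitor that bridges Mmp14 and pro-Mmp2, had signals of 7.41, 7.06 and 7.34 in the controls and 7.55, 7.43 and 7.28 with C3a. C3a replicates 1 and 2 lay above all controls, C3a replicate 3 lay among them and control replicate 2 was the lowest array. The difference was 0.15 (standard error 0.13, 95% interval -0.16 to 0.46, adjusted p = 0.759 from limma), or 1.11-fold, and 0.05 without control replicate 2.

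Timp3, the inhibitor that is bound to the matrix and also blocks Adam17 and several ADAMTS proteases, had the largest difference of the group on its only probe. Its signals were 25.3, 30.2 and 14.3 intensity units in the controls and 26.7, 34.0 and 21.0 with C3a, which overlap before scaling. The relative log2 signals were -3.43, -3.60 and -4.24 in the controls and -3.11, -3.08 and -3.30 with C3a. On this scale all 3 C3a arrays lay above all controls, and control replicate 3 was far below the rest. The difference was 0.59 (standard error 0.21, 95% interval 0.10 to 1.09), with an unadjusted p of 0.0245 and an adjusted p = 0.746 from limma. Since control replicates 1 and 3 were not well above background, this value rests on signals near the floor and no fold is given. The probe entered the comparison only through the C3a arrays, where it was well above background, so it was in part selected for a high signal there. The difference was 0.76 without control replicate 1 and 0.35 without control replicate 3. It was 0.27 with normexp background correction. The unadjusted p rose to 0.0676 without C3a replicate 1 and 0.0700 without C3a replicate 2. Timp4, known as the TIMP most abundant in the heart, lay between -4.61 and -4.13 in the controls and between -5.06 and -3.78 with C3a, with no array well above background.

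**Figure D2:**
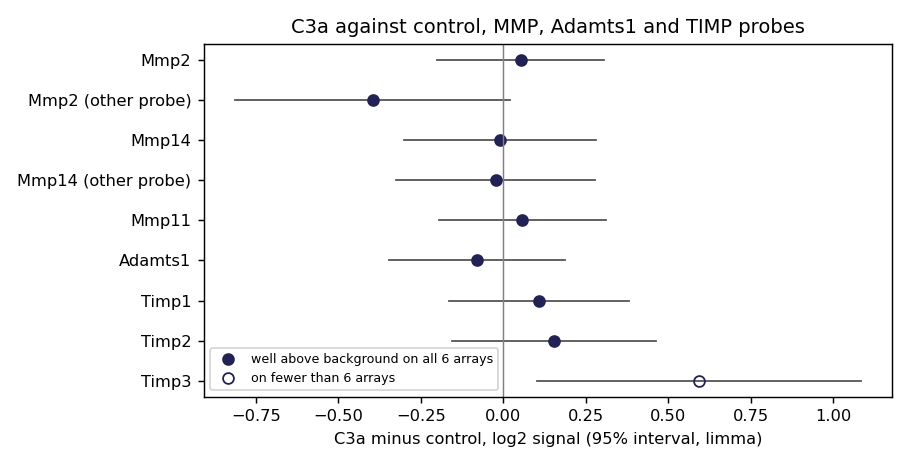
C3a minus control difference (x axis, log2 signal, with 95% intervals from limma) of the probes that entered the comparison. Filled points were well above background on all 6 arrays, and the open point is Timp3, the single probe whose interval, 0.10 to 1.09, lies to one side of 0 before adjustment.

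Of the 7 genes that entered the comparison, 0 passed the adjusted threshold in limma, as did 0% of the 10390 genes with a kept probe. At an unadjusted p under 0.05 there was 1, Timp3, beside 5.35% of all genes (2.89% higher, 2.46% lower) and 5.83% of all kept probes (3.33% higher, 2.5% lower). Groups did not overlap for 1 gene, again Timp3, beside 13% of all genes (8.08% with all C3a arrays above, 4.88% with all below) and 12.4% of all kept probes (7.96% above). Over the 6 genes well above background on every array the difference ranged from -0.08 to 0.15 with a median of 0.05. The median over all genes with a kept probe was 0.04. Of the 6, 4 were above 0, beside 60.5% of all genes with a kept probe. That wider set carries the filter, since 23425 kept probes passed on the C3a arrays and 17519 on the controls. At an unadjusted p under 0.05 in limma, 780 kept probes were higher and 587 lower. Among probes well above background on all 6 arrays, 366 were higher and 645 lower, with a median difference of 0.04. No direction is given for Mmp2, Mmp11, Mmp14 or Timp2, since it turned with 1 array left out (Mmp2, Mmp11 and Mmp14) or after quantile normalization (Mmp2 and Timp2). Without normalization between arrays every probe shifted alike, by -0.32, so directions in that setting can be read only against the median of all probes. Against it, Mmp2, Mmp11, Mmp14, Timp1 and Timp2 lay at 0.0047, 0.0096, -0.06, 0.06 and 0.11. With the replicate numbers as a block, the lowest adjusted p of the 7 in limma was 0.229, for Timp3, and the dimmer Mmp2 probe came to an unadjusted p of 0.0173 (adjusted p = 0.278). Within the 3 pairs of equal number, Timp1 was higher with C3a in each, by 0.10, 0.15 and 0.07, and so was Timp3, by 0.32, 0.52 and 0.94. Of all kept probes, 25.1% were higher in all 3 pairs and 13.7% lower. The dimmer Mmp2 probe was lower with C3a in each pair, at -0.24, -0.29 and -0.66. Timp2, Mmp11, Mmp14 and the brighter Mmp2 probe went both ways. So did Adamts1, at 0.05, -0.33 and 0.04.

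The balance between proteases and inhibitors was taken on each array as the mean log2 signal of Mmp2, Mmp11 and Mmp14 minus that of Timp1, Timp2 and Timp3, relative to the mean of the controls. Only its shift between arrays can be read, and this score over chosen genes was not tested. The controls lay at -0.06, -0.05 and 0.10 and the C3a arrays at -0.30, -0.22 and -0.23. The difference between group means was -0.25, with SDs of 0.090 and 0.041 (n = 3 each). The groups did not overlap, which was also so for 13% of single genes. Timp3 entered the score only because its probe was well above background on the C3a arrays, so this gap was in part selected. Without the dim Timp3 probe, a choice made after seeing the data, the controls lay at 0.01, 0.07 and -0.08 and the C3a arrays at -0.16, -0.02 and -0.11. The groups then overlapped, and the difference was -0.10 (SDs 0.076 and 0.072), below 0 in each of the 3 pairs of equal number (-0.17, -0.09 and -0.03).

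The pairs that act together on the cell surface gave smaller shifts than the -0.25 of the balance with Timp3. Neither was smaller than the -0.10 of the balance without it. For Mmp14 over Timp2 the C3a arrays lay at -0.18, -0.24 and -0.07 and the controls between -0.06 and 0.04, a difference of -0.16. These groups did not overlap, but C3a replicate 3 lay close to the lowest control. Several choices of genes were looked at, and no share of non-overlap is given for balances, beside 13% of single genes. For Mmp2 over Timp2 the difference was -0.10, and C3a replicate 3, at 0.01, lay among the controls. With the mean over all kept probes of each gene, which brings in the dimmer Mmp2 probe, the balance of the 6 genes moved to -0.33, and with normexp background correction to -0.12.

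**Figure D3:**
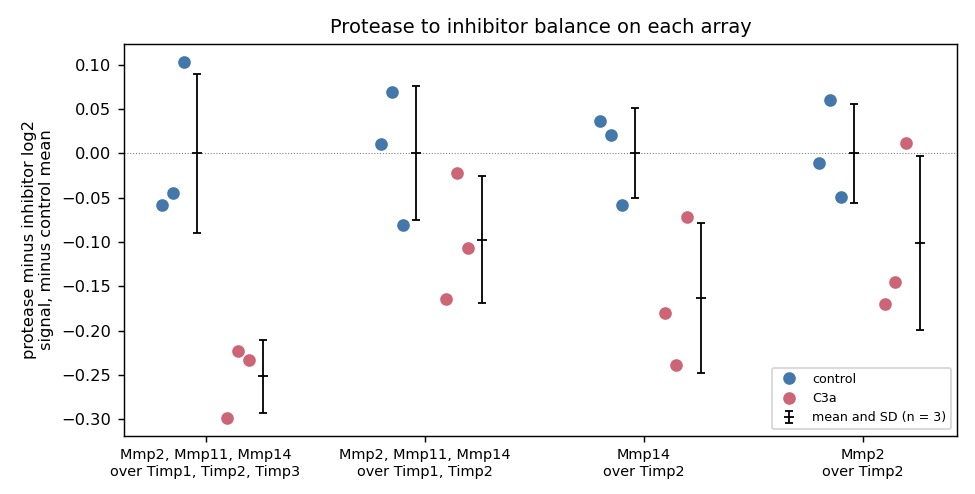
Protease minus inhibitor log2 signal on each array (y axis, relative to the mean of the 3 controls) for 4 choices of genes, with group mean and SD (n = 3). With Timp3 among the inhibitors the C3a arrays lie between -0.30 and -0.22, below all controls. For the same genes without Timp3, and for Mmp2 over Timp2, the groups overlap. For Mmp14 over Timp2 the C3a arrays lie below all controls, with C3a replicate 3 close to the lowest.

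Across the 6 arrays the brightest probes of the detected genes moved little. The dimmer Mmp2 probe moved more, with an SD of 0.31 over all arrays. Among the brightest probes, the SD of the relative log2 signal over all arrays was largest for Timp2 (0.17), Mmp14 (0.13) and Timp1 (0.13). On all 3, control replicate 2 was the lowest array, at -0.29, -0.19 and -0.22 from the gene's own mean, and on Timp2 and Timp1 C3a replicate 1 was the highest, at 0.21 and 0.14. The median of all probes well above background on all arrays moved the same way on these arrays, by -0.07 and 0.05. Among 8556 genes well above background on all 6 arrays, the genes most like Timp2, by the root mean square difference of log2 signals centred on each gene's mean, were Fdx2 (0.0055), Spink8 (0.011) and Scgb1c1 (0.012), beside a median of 0.15 over all genes. Those most like Mmp14 were C1h6orf120 (0.019), Glipr1 (0.030) and Psmd4 (0.030), and those most like Timp1 were Igf2bp2 (0.021), Tll1 (0.021) and Ccdc171 (0.022). With 6 arrays and small differences these likenesses describe the arrays and nothing further.

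The other matrix proteases and their regulators were taken from 3 lists. Of 16 other MMPs, 15 had a probe, 6 entered the comparison and 0 passed the adjusted threshold in either direction, with 0 at an unadjusted p under 0.05. Mmp15, a further membrane-type MMP, had relative log2 signals of 6.22, 5.72 and 5.94 in the controls and 6.36, 6.06 and 6.14 with C3a. The groups overlapped, and the difference was 0.22 (adjusted p = 0.746 from limma) and 0.10 without control replicate 2. Mmp17, anchored to the membrane by a lipid, gave -0.44, -0.80 and -0.64 in the controls and -0.20, -0.31 and -0.51 with C3a. Its C3a replicate 3 lay among the controls, and the difference was 0.29 (95% interval -0.03 to 0.60). With the replicate block its unadjusted p came to 0.0389 (adjusted p = 0.342 from limma). Mmp23, with 1.98, 1.57 and 1.93 in the controls and 1.98, 1.80 and 1.81 with C3a, differed by 0.03, with overlapping groups. The collagenases Mmp8 and Mmp13 and the stromelysin Mmp10 did not enter the comparison, Mmp8 and Mmp10 with no array and Mmp13 with 1 control array well above background.

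Of 24 other ADAM and ADAMTS proteases, 14 had a probe here, 11 entered the comparison, 0 passed the adjusted threshold and 1 was lower at an unadjusted p under 0.05, beside 2.46% of all genes. This was Adamts5, a secreted aggrecanase. Its relative log2 signals were -2.85, -2.17 and -2.84 in the controls and -3.44, -3.49 and -3.43 with C3a. All C3a arrays lay below all controls, as for 4.88% of all genes, and control replicate 1 was not well above background. The difference was -0.84 (standard error 0.19, 95% interval -1.28 to -0.39), with an unadjusted p of 0.00290 and an adjusted p = 0.746 from limma. The C3a signals were dim, between 19.2 and 25.6 intensity units, so no fold is given. Leaving out each array gave between -0.95 and -0.61, and normexp background correction gave -0.29. Of the brightest members of the list, Adam19 gave 5.08, 5.16 and 5.08 in the controls and 5.16, 5.12 and 5.44 with C3a, a difference of 0.14. Adamts7 gave 4.17, 4.08 and 3.98, and 4.15, 4.13 and 4.09 with C3a, a difference of 0.04. Adamts9, which cleaves versican, gave 1.12, 0.94 and 0.87, and 1.1, 1.1 and 0.95 with C3a, a difference of 0.07. For all 3 the groups overlapped and none had an unadjusted p under 0.05.

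Of 10 activators, receptors and regulators, 9 had a probe, 8 entered the comparison, 0 passed the adjusted threshold and 1 was higher at an unadjusted p under 0.05, beside 2.89% of all genes. This was Pcsk5, a proprotein convertase, with relative log2 signals of -1.12, -1.17 and -1.37 in the controls and -1.02, -0.87 and -0.87 with C3a. All C3a arrays lay above all controls, as for 8.08% of all genes, and the difference was 0.30 (standard error 0.11, adjusted p = 0.746 from limma). The mean over all kept Pcsk5 probes gave -0.094, so the direction depended on the probe. Furin, the convertase that activates Mmp11 and Mmp14, gave 3.65, 3.32 and 3.55 in the controls and 3.77, 3.74 and 3.76 with C3a. Its groups did not overlap either, with a difference of 0.25 (95% interval -0.02 to 0.51, adjusted p = 0.746 from limma). The Furin difference was 0.15 when control replicate 2 was left out. Bsg (EMMPRIN, a surface protein known to induce MMPs in fibroblasts) gave 5.17, 4.98 and 4.99 in the controls and 5.06, 5.21 and 4.82 with C3a, a difference of -0.01. The convertase Pcsk6 gave 0.38, 0.47 and 0.55, and 0.45, 0.33 and 0.44 with C3a, a difference of -0.06. Both had overlapping groups. Over the 3 lists the median difference was 0.13 for the MMPs, 0.06 for the ADAM and ADAMTS proteases and -0.03 for the regulators, beside 0.04 over all genes with a kept probe.

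**Figure D4:**
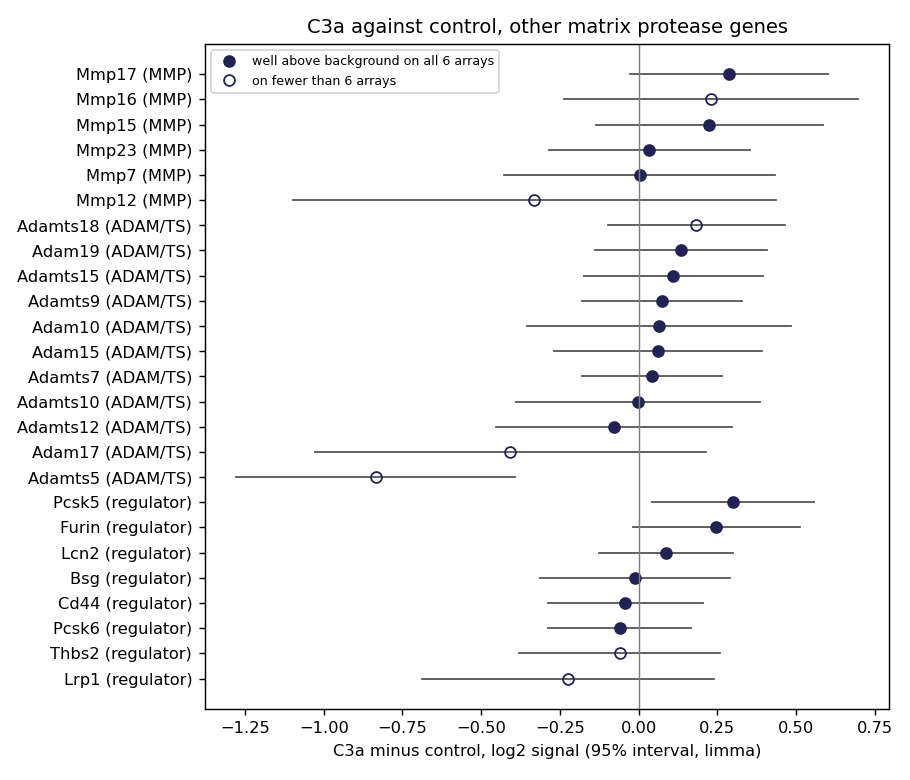
C3a minus control difference (x axis, log2 signal, with 95% intervals from limma) of the 25 other matrix protease and regulator genes that entered the comparison, grouped by list. Filled points were well above background on all 6 arrays. Adamts5, at -0.84, and Pcsk5, at 0.30, are the genes whose intervals lie to one side of 0 before adjustment.

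Fibroblasts are a known source of Mmp2, Mmp14 and TIMPs, and their markers were measured on the same arrays. The summed relative signal of the 10 fibroblast markers was 98.8 to 113 in the controls and 97.8 to 114 with C3a. Of these 10, 2 were above 0 in the C3a minus control difference, beside 60.5% of all genes with a kept probe. Their median was -0.04. Lum alone among them had an unadjusted p under 0.05, with a difference of -0.54 (adjusted p = 0.746 from limma), beside 2.46% of all genes lower at that threshold. Its C3a signals were dim, between 15.2 and 30.6 intensity units. It entered only through the C3a arrays, with 2 of 3 control arrays well above background. The sum of the 10 macrophage markers was 6.16 to 7.81 in the controls and 6.27 to 6.87 with C3a, and C1qa and Mrc1 were not well above background on any array. Of the 6 that entered the comparison, 4 were above 0 (median 0.14). Itgam, an integrin of myeloid cells, had an unadjusted p of 0.00705 (difference 0.63, adjusted p = 0.746 from limma), beside 2.89% of all genes higher at an unadjusted p under 0.05. All its C3a arrays lay above all controls, as for 8.08% of all genes. Itgam, Csf1r and C1qb entered only through the C3a arrays, so they were in part selected for a signal above background there. Each was also well above background on 2 of 3 control arrays, all but replicate 1, the array with the raised background. Lyz2, Cd68 and Aif1, well above background on all 6 arrays, differed by -0.09, -0.16 and 0.06. The sum of the 7 endothelial markers was 33.4 to 46.0 in the controls and 42.3 to 53.6 with C3a. Of the 5 that entered the comparison, 4 were above 0, with a median difference of 0.14. The other, Tek, had all C3a arrays below all controls, as for 4.88% of all genes. The sum of the 10 cardiomyocyte markers was 5096 to 6630 in the controls and 6355 to 7201 with C3a. Of these, 8 of 10 were above 0, with a median difference of 0.16. For every list the ranges of the groups overlapped. The part of other cell types in the values of the proteases and TIMPs was not tested.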

How the data were processed

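RNA from 3 control and 3 C3a cultures of NRVCs was labelled with Cy3 and hybridised to 1-colour Agilent rat arrays. The authors deposited spot intensities from Agilent Feature Extraction 11.5.1.1, with background subtracted and spatial trends corrected but no normalization between arrays. The authors also deposited log2 values for 36638 probes, whose scaling is not given in the sources used here. They matched the log2 intensity minus that array's 75th percentile in log2, uncentred, to within 0.0059 at the median, with column medians between -3.13 and -3.00. Control spots (4259 of 62976) and outlier spots were left out, and spots of a probe were averaged. Accessions of 21109 of 45598 probes (46.3%) were in the GRCr8 gene table. The array design uses another assembly, and coordinates are given only for promoters. A probe was kept (23438 in all) if each of the 3 arrays of at least 1 group had it well above background in at least 50% of its spots. C3a and control were compared by two-sided moderated statistics from lmFit and eBayes (limma 3.58.1, R 4.3.3), with Benjamini-Hochberg adjustment over all kept probes, a step tested on simulated data. Figures used matplotlib 3.10.9. The number of arrays limits the precision. Genes and lists were chosen with earlier results of these data known. Named are all 10 genes, the other genes with the 3 lowest unadjusted p and the 3 brightest of each list, the 3 nearest patterns of the 3 most variable genes, and further list members chosen after their values were seen. Arrays of equal replicate number deviated together from their group means (r = 0.28, 0.32 and 0.31), so the numbers were used as pairs in the replicate block. For unequal numbers r was -0.26 to -0.09. Deviations within a group sum to 0, which ties these values to the former, so they are no separate evidence of pairing. Equal numbers also share a place along the slide, so a shared place and a shared preparation cannot be told apart. The alternatives were other normalizations, filters, background correction, weights, the log2 table, the methods' t-test on the same values, each array left out and all probes of a gene. Normexp used the median spot signal with an offset of 50.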

Additional observations from a re-analysis of the deposited data

How the results depend on the processing

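The count of 0 genes of the group past the adjusted threshold in limma held in every alternative, and so did that of the other matrix proteases and regulators. Over all kept probes it was 0 in all but no normalization, with 4. At an unadjusted p under 0.05, the 1367 probes became 2599 without normalization, 3186 with the replicate block and 711 to 2138 with an array left out. The methods' t-test called 1110 probes there and 0 after Benjamini-Hochberg adjustment. Timp3, the 1 gene of the group at that threshold, was not under it (0 genes) with normexp, without normalization, without a filter, in the methods' t-test, or without C3a replicate 1 or C3a replicate 2. The filter on all 6 arrays leaves Timp3 out. The 2 other matrix genes became 3 without normalization, with normexp, with the replicate block and with the filter on all 6 arrays, 4 with array weights, 5 without control replicate 1, and 1 without control replicate 3 or C3a replicate 2. The replicate block turned no adjusted call, with a Timp3 difference of 0.59 (adjusted p = 0.229 from limma). It brought Mmp17 and the dimmer Mmp2 probe under the unadjusted threshold. Other alternatives did so too, among them the filter on all 6 arrays (unadjusted p of 0.0486 and 0.0418, adjusted p = 0.709 for both, from limma).

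The balance of -0.25 moved to -0.12 with normexp, -0.33 with the mean of all kept probes, -0.16 for Mmp14 over Timp2, -0.10 for Mmp2 over Timp2 and -0.10 without Timp3, which was added after seeing the data. Leaving out each array gave -0.28 to -0.20. Timp3 and Adamts1 kept their direction in all 15 and 16 alternatives run, as did Adamts5 and Pcsk6 in 15 and 16 and the dimmer Mmp2 probe in 16. Within the pairs of equal number, however, Adamts1 went both ways. Without normalization every probe shifted by -0.32 and the median of all probes lay at -0.28, so each difference between 0 and that size had to turn, as it did for Mmp2 (-0.27), Mmp11 (-0.27), Timp1 (-0.22), Timp2 (-0.17), Pcsk5 (-0.025), Furin (-0.078), Mmp15 (-0.10), Mmp23 (-0.29), Mmp17 (-0.037), Adam19 (-0.19), Adamts7 (-0.28) and Adamts9 (-0.25). Of these, Mmp23 and Adamts7 also lay below the median of all probes there. After quantile normalization it turned for Mmp2 (-0.0057), Timp2 (-0.012) and Adamts7 (-0.022). With array weights it turned for Mmp23 (-0.055) and Bsg (0.061), and with the mean of all kept probes for Mmp2 (-0.17) and Pcsk5 (-0.094). Leaving out each array gave ranges across 0 for Mmp2 (-0.024 to 0.12), Mmp11 (-0.018 to 0.11), Mmp14 (-0.11 to 0.078), Mmp23 (-0.093 to 0.11), Adamts7 (-0.0055 to 0.089) and Bsg (-0.10 to 0.094). For Timp1, Timp2 and Adamts1 they were 0.02 to 0.17, 0.05 to 0.23 and -0.14 to -0.01. The cause of the other turns was not tested. Background limits Mmp3, Mmp9 and Timp4: the comparison without a filter gave them adjusted p = 0.869, 0.869 and 0.923 in limma, on signals that have no order.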
